A study of Mus musculus with 8 samples.

Results

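The genes described here are those of the proteasome, the protease that degrades ubiquitin-tagged proteins, in livers of mice that lack the long form of the transcriptional repressor Cic and in wildtype livers. They were chosen by name: every gene whose symbol in the array annotation begins with Psma, Psmb, Psmc, Psmd, Psme, Psmf or Psmg, leaving out Psmb8 and Psmb9. This gave 43 of the 16593 genes in the annotation, with 65 probes, and 40 of the 43 genes had a probe bright enough to test. By the labels, the compared groups were Cic-L-/- and wildtype, both C57BL and both 18 day old, with total RNA of liver from 4 samples each, hybridised to 1 Cy3 bead array per sample. The comparison asks what the loss of Cic-L changes in the liver of young mice. The labels do not say how the allele was made, in which cells it is lost, or whether the samples of a group are separate animals. The p-values therefore rest on the sample-to-sample spread seen here, part of which could be technical.

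The 26S proteasome is built from a barrel, the 20S core, and a cap, the 19S regulatory particle. The outer alpha rings of the barrel gate its entrance and the inner beta rings carry the peptidase sites, while the cap binds ubiquitin chains, removes them, and uses a ring of ATPases to unfold the substrate and feed it into the barrel. Alternative caps (the activators encoded by Psme genes) open the barrel without ubiquitin, chaperones assemble the parts, and interferon gamma replaces the standard peptidase subunits by immunoproteasome subunits. When proteasome activity is limiting, the transcription factor NRF1 (gene Nfe2l1) is known to raise the genes of barrel and cap together, through antioxidant response elements in their promoters.

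On these arrays the proteasome genes were close to their wildtype level in Cic-L-/- liver. By limma with Benjamini-Hochberg adjustment over 8255 features, 0 of the 40 tested genes passed an adjusted p of 0.05, where 7.39% of all features did (4.49% higher and 2.9% lower in Cic-L-/- liver). Without adjustment, 5 of 40 had a p under 0.05 (3 higher and 2 lower), against 22.5% of all features (12.6% higher and 9.92% lower). The 4 Cic-L-/- values lay apart from the 4 wildtype values for 2 of the 40 genes, both higher, against 15.1% of all features (8.53% higher and 6.55% lower). Levels are log2 of background-corrected, quantile-normalised signal, and a difference is Cic-L-/- minus wildtype on that scale. The median log2 difference was -0.09 over the proteasome genes and 0.00316 over all features. Differences lay between -0.48 and 0.86, within 0.5 of 0 for 38 of the 40 genes (95%) and for 83.9% of all features. The median size of a difference, whatever its sign, was 0.16 for the proteasome genes and 0.22 for all features. The median standard error was also smaller, at 0.16 for the proteasome genes and 0.18 for all features, and its part in these sizes was not tested.

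**Figure D1:**
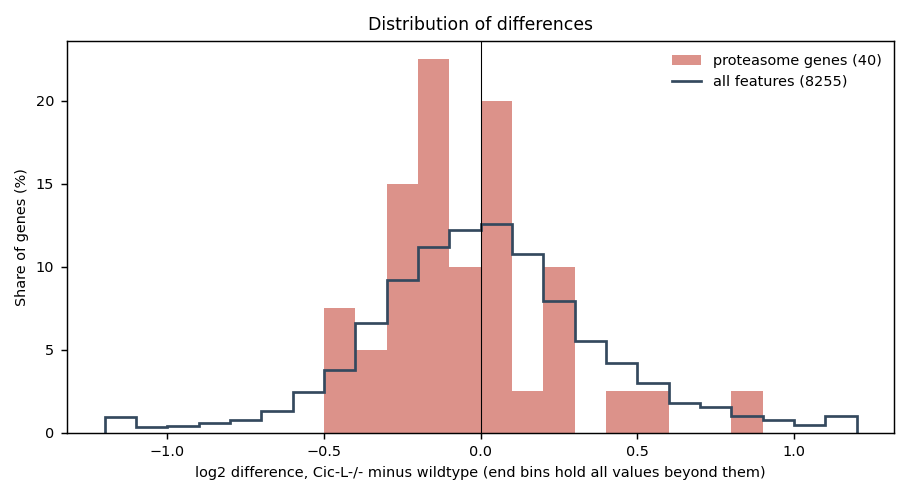
Share of genes (vertical axis, %) by log2 difference, Cic-L-/- minus wildtype (horizontal axis), for the 40 tested proteasome genes (filled) and all 8255 features (line). The proteasome genes lie between -0.48 and 0.86, with 38 of 40 within 0.5 of 0.

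A difference that misses the threshold is not shown to be absent, so the 95% interval of each was read as well. It lay wholly within a 2-fold change in either direction for 36 of the 40 proteasome genes (90%; 85.9% of all features) and within a 1.5-fold change for 20 (50%; 40% of all features). The 4 with wider intervals were Psmb5, Psmd1, Psmd6 and Psmd9, all of them dim probes. The 34 genes above background on all 8 arrays included Psmd6 but not the other 3.

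**Figure D2:**
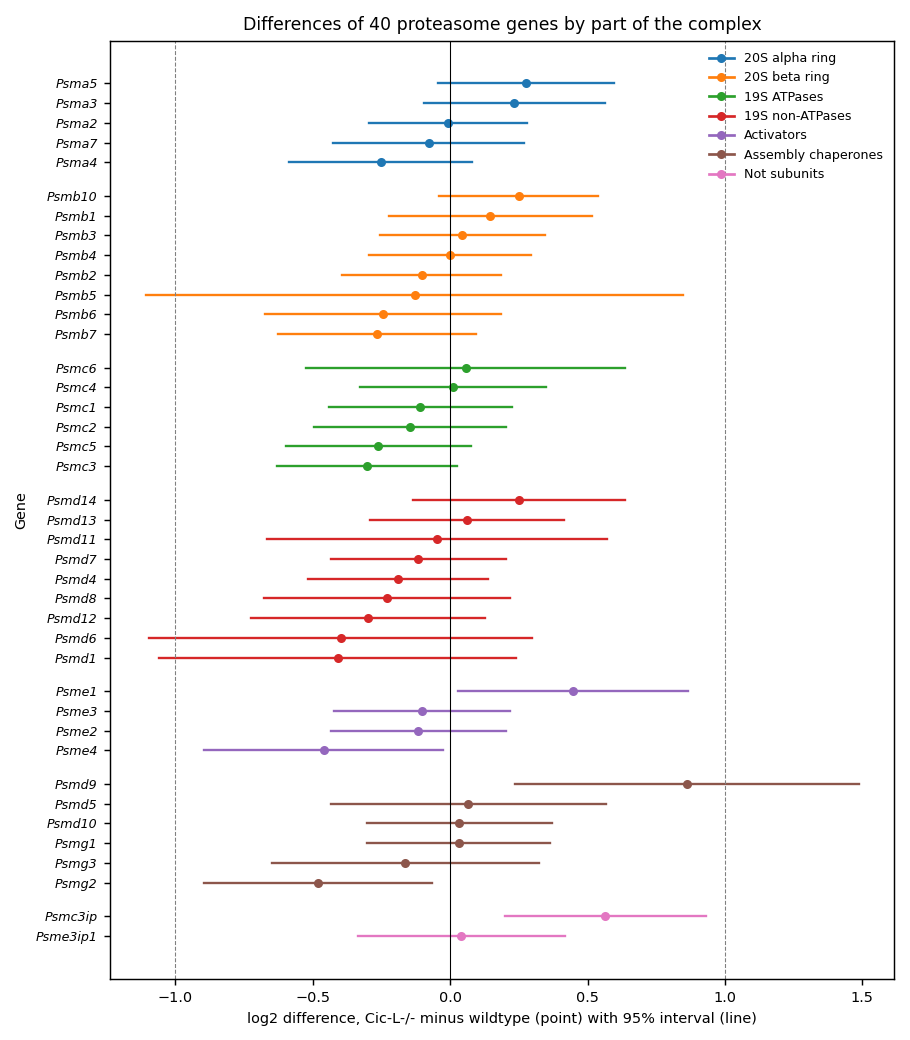
Log2 difference, Cic-L-/- minus wildtype (point), with its 95% interval (line) for the 40 tested genes, coloured by part of the complex, with dashed lines at a 2-fold change. All intervals of the alpha ring, ATPase and activator genes lie inside the dashed lines, and those of Psmb5, Psmd1, Psmd6 and Psmd9 cross 1 of them.

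Across whole arrays, the first principal component held 42.5% of the variance and separated the groups, while the second, with 14.2%, set Cic-L-/- replicates 1 and 2 apart from Cic-L-/- replicates 3 and 4. The median background intensity was 138.5 to 141.9 on Cic-L-/- arrays and 114.2 to 136.3 on wildtype arrays, and 39.6% to 43.5% and 38.7% to 41.3% of probes exceeded background. The hepatocyte markers Ttr, Cps1, Hnf4a, Apoa1 and Serpina1a were above background on all 8 arrays. Of the other hepatocyte markers, Tat was not above background on any array. The Alb probe was dim, with mean log2 signals of 5.33 in Cic-L-/- and 6.01 in wildtype liver, and exceeded background on 3 Cic-L-/- and 4 wildtype arrays. Relative to the wildtype mean, the median over the proteasome genes was -0.07, -0.13, 0.01 and -0.0049 log2 in Cic-L-/- replicates 1 to 4, against -0.06, 0.0081, -0.03 and 0.07 in wildtype replicates 1 to 4. Only Cic-L-/- replicates 1 and 2 lay below all wildtype arrays by this measure. Without these replicates the median difference was -0.0032, 0 of 40 genes passed, and the smallest adjusted p was 0.148 (Psmd14, 0.53), in a test with 2 Cic-L-/- samples. These replicates were left out after the data were seen and were the lowest by this measure, so the higher median without them is not a test. In bulk tissue, fewer cells of a type and less RNA per cell cannot be told apart.

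Sequence before the start of these genes was searched for the element through which NRF1 acts and for the sites that CIC binds. RefSeq promoters of build GRCm38.p6, from 250 bases before to 50 after the start, were matched for 37 of the 43 genes. The antioxidant response element was taken as TGACNNNGC on either strand, and 6 of the 37 genes held it (16.2%), against 14% of all 27025 genes with such a window. None of the 4 CIC octamers TGAATGAA, TGAATGGA, TCAATGAA and TCAATGGA, searched on both strands, occurred in the 37 genes (0%), against 4.45% of all genes, which says only that these letters are not in these windows. The following stretches, 5′ to 3′ on the strand of the gene, are those in which the element lay nearest the start, with its match in capitals.
Psmb6, chr11:70525328-70525376, plus strand: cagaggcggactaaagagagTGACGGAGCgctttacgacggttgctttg
Psmb5, chr14:54618014-54618062, minus strand: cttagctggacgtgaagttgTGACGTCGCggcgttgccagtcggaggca
Psmd9, chr5:123228139-123228187, plus strand: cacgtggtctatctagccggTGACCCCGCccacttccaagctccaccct
Psme4, chr11:30771748-30771796, plus strand: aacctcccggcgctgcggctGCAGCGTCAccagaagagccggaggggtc

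In Psme4 the element reads on the opposite strand. The other genes with a match were Psmc6 and Psmd12, where it lay over 200 bases before the start. The 6 genes did not share a direction: their log2 differences were -0.24 for Psmb6, -0.13 for Psmb5, 0.86 for Psmd9, -0.46 for Psme4, 0.06 for Psmc6 and -0.30 for Psmd12, and none passed the test. Nfe2l1 itself, which encodes NRF1, had a mean log2 signal of 9.12 (SD 0.39) over the 4 Cic-L-/- samples and 9.11 (SD 0.24) over the 4 wildtype samples, and differed by 0.0093 (95% interval -0.44 to 0.46, limma adjusted p = 0.985).

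Of the 7 alpha ring genes 5 were tested, and none passed. Psma5 had log2 signals of 11.51, 11.69, 11.62 and 11.75 in Cic-L-/- liver, against 11.57, 11.13, 11.31 and 11.45 in wildtype liver. Psma3 had 12.30, 12.12, 12.21 and 12.26 in Cic-L-/- liver, against 12.23, 12.12, 11.79 and 11.82 in wildtype liver. In both genes the Cic-L-/- samples lay close together, and at least 1 wildtype sample lay within their range. The differences were 0.28 ± 0.15 (SE, limma adjusted p = 0.297) for Psma5 and 0.23 ± 0.15 (adjusted p = 0.4) for Psma3. Psma4 leaned the other way, with 11.72, 11.49, 11.44 and 11.56 in Cic-L-/- liver, against 11.63, 11.94, 11.62 and 12.02 in wildtype liver (-0.25 ± 0.15, adjusted p = 0.361). Psma7, another subunit of this ring, had 10.46, 10.15, 10.46 and 9.95 in Cic-L-/- liver, against 10.47, 10.34, 10.30 and 10.23 in wildtype liver. Its difference of -0.08 ± 0.16 was smaller than its standard error. The second Psma7 probe gave -0.11. Psma2 differed by -0.0094, with an interval of -0.30 to 0.28. The alpha ring products occur in equal numbers in the barrel, and their transcripts here leaned to both sides.

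The probes of Psma1 and Psma6 were not above background on any of the 8 arrays. Their intensities were 133.9 to 147.2 in Cic-L-/- liver and 105.5 to 142.9 in wildtype liver for Psma1, and 124.2 to 143.5 and 112.1 to 129.6 for Psma6. On each array these values were below the brightest 5% of control rows, so the arrays say nothing about these subunits in either group. Psmd2 encodes a large scaffold subunit of the cap and was not tested either. Its brighter probe exceeded background on 2 Cic-L-/- arrays and 1 wildtype array, which was below the 4 arrays required for testing.

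All 8 beta ring genes were tested and none passed. The catalytic subunits are encoded by Psmb6 (caspase-like), Psmb7 (trypsin-like) and Psmb5 (chymotrypsin-like), with Psmb10 as the inducible substitute of Psmb7. Psmb6 had log2 signals of 10.28, 10.74, 10.41 and 9.90 in Cic-L-/- liver, against 10.59, 10.49, 10.89 and 10.34 in wildtype liver (-0.24 ± 0.20 SE, limma adjusted p = 0.504). Psmb7 had 10.32, 10.06, 10.53 and 9.95 in Cic-L-/- liver, against 10.29, 10.59, 10.61 and 10.44 in wildtype liver (-0.27 ± 0.16, adjusted p = 0.38). Both genes overlapped between groups, with Cic-L-/- replicate 4 the lowest sample of the 8. The Psmb6 difference was -0.10 without that sample, -0.14 without wildtype replicate 3 and -0.38 without Cic-L-/- replicate 2. For Psmb7 the other probes pointed the opposite way, at 0.22 and 0.25, and the mean of its 3 probes gave 0.07 (adjusted p = 0.815), so the array gives no direction for this gene.

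The Psmb5 probe was dim, with 5.19, 5.12, 6.47 and 5.71 in Cic-L-/- liver, against 4.86, 4.95, 6.95 and 6.23 in wildtype liver. It exceeded background on 3 Cic-L-/- arrays and 2 wildtype arrays. Replicates 3 and 4 were the brighter ones in both groups, and the spread left an interval of -1.11 to 0.85. Of the structural beta subunits, Psmb4 differed by -7.4e-04 (interval -0.30 to 0.29), Psmb3 by 0.04 (-0.26 to 0.35), Psmb2 by -0.10 (-0.39 to 0.19) and Psmb1 by 0.15 (-0.22 to 0.52).

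Psmb10 was 1 of the 2 genes whose groups did not overlap. Its log2 signals were 9.47, 9.51, 9.66 and 9.68 in Cic-L-/- liver, against 9.37, 9.26, 9.39 and 9.31 in wildtype liver. The difference was 0.25 ± 0.13 (SE, limma adjusted p = 0.295), a 1.19-fold ratio, and it did not pass. Its other probe gave 8.73, 9.13, 8.82 and 8.49 in Cic-L-/- liver, against 8.63, 7.48, 8.79 and 8.38 in wildtype liver (0.47 ± 0.26, adjusted p = 0.333 over all probes above background), with overlapping groups. On the deposited normalised values Psmb10 had the smallest adjusted p of the 40 genes (0.21, adjusted p = 0.118).

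In the cap, 6 of 6 ATPase genes and 9 of the 10 non-ATPase genes named in the annotation were tested, and none passed. The non-ATPase subunit gene Psmd3 was not analysed here. Psmc3 had log2 signals of 9.60, 9.09, 9.40 and 9.34 in Cic-L-/- liver, against 9.56, 9.79, 9.63 and 9.68 in wildtype liver (-0.30 ± 0.15 SE, limma adjusted p = 0.257). Psmc5 had 8.92, 8.96, 8.90 and 9.11 in Cic-L-/- liver, against 8.999, 9.54, 9.14 and 9.26 in wildtype liver (-0.26 ± 0.15, adjusted p = 0.348). In each of these ATPases 3 of the 4 Cic-L-/- samples lay below every wildtype sample and the remaining one within their range. Without wildtype replicate 2 the Psmc5 difference was -0.16. The other Psmc5 probe gave -0.35. The remaining ATPases were nearer to 0, with Psmc2 at -0.15, Psmc1 at -0.11, Psmc4 at 0.009 and the dim Psmc6 at 0.06.

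Among the non-ATPase subunits the signs were negative for 7 of 9, against 49.6% of all features, with a median of -0.19. Psmd12, a lid subunit, differed by -0.30 ± 0.19 (adjusted p = 0.405). Its Cic-L-/- samples read 9.45, 9.27, 9.37 and 8.56 against 9.41, 9.52, 9.41 and 9.50 in wildtype liver, so that Cic-L-/- replicate 4 lay well below the others. Its second probe gave 0.50 ± 0.30, the opposite sign. Psmd14, the deubiquitinase of the lid that removes ubiquitin chains before degradation, differed by 0.25 ± 0.18 (adjusted p = 0.442), with Cic-L-/- replicates 3 and 4 at 8.13 and 8.22 and the other 6 samples between 7.51 and 7.73. The ubiquitin receptor Psmd4 differed by -0.19, Psmd8 by -0.23, Psmd7 by -0.12, Psmd13 by 0.06 and Psmd11 by -0.05. The dim probes of Psmd1 (-0.41 ± 0.30) and Psmd6 (-0.40 ± 0.32) had the most negative values of the cap and among its widest errors.

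Over barrel and cap together, 28 of 31 genes were tested, with a median of -0.11. By limma 0 passed at an adjusted p of 0.05, against 7.39% of all features. An unadjusted p under 0.05 was seen for 0, against 22.5% of all features. Negative signs made up 19 of the 28 (67.9%), against 49.6% of all features. Each gene counts here by its brightest probe, and the negative genes Psmb7, Psmd11 and Psmd12 had other kept probes of positive sign. With the mean of a gene's kept probes, 55% of the 40 signs were negative in place of 60%. With each array centred on its median, in place of quantile normalisation, the median of all features was 0.17, the median of the 40 genes was 0.08, and 37.5% of the 40 signs were negative in place of 60%. Relative to the median of all features, the 40 genes stood at -0.08 with median centring and at -0.09 with quantile normalisation.

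On the background-corrected, quantile-normalised scale, the genes with an unadjusted p under 0.05 were all outside barrel and cap. They were the activators Psme1 and Psme4, the chaperones Psmd9 and Psmg2, and Psmc3ip. Without background correction, the barrel and cap genes Psmb10, Psmc3, Psma5 and Psma4 also had an unadjusted p under 0.05 by limma. Psme1, the alpha subunit of the interferon-inducible activator PA28, had log2 signals of 9.70, 9.86, 9.43 and 10.12 in Cic-L-/- liver, against 9.34, 9.33, 8.98 and 9.67 in wildtype liver. The difference was 0.45 ± 0.19 (SE, limma adjusted p = 0.195), a 1.36-fold ratio, and only wildtype replicate 4 reached into the Cic-L-/- range. Its second probe read 8.66, 8.74, 8.86 and 8.51 in Cic-L-/- liver, against 8.49, 8.51, 7.79 and 8.48 in wildtype liver (0.37 ± 0.19, adjusted p = 0.28 over all probes above background), with groups that did not overlap. Its partner Psme2, the beta subunit of the same ring, had 8.003, 7.76, 7.83 and 7.69 in Cic-L-/- liver, against 8.15, 7.81, 7.85 and 7.94 in wildtype liver, a difference of -0.12 ± 0.15 (adjusted p = 0.688). The groups of Psme2 overlapped, its difference was -0.04 without wildtype replicate 1, -0.07 without Cic-L-/- replicate 4 and -0.18 without Cic-L-/- replicate 1, and whether its difference departs from that of Psme1 was not tested.

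Psme4 encodes PA200, a nuclear activator known for the breakdown of acetylated histones. It had 10.13, 10.07, 9.47 and 10.36 in Cic-L-/- liver, against 10.73, 10.32, 10.30 and 10.51 in wildtype liver (-0.46 ± 0.20 SE, limma adjusted p = 0.198, 1.38-fold lower). Cic-L-/- replicate 3 was the lowest sample, and without it the difference was -0.28 (adjusted p = 0.38). Cic-L-/- replicate 4 lay within the wildtype range. Psme3, which encodes the nuclear PA28 gamma, differed by -0.10 (interval -0.42 to 0.22).

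**Figure D3:**
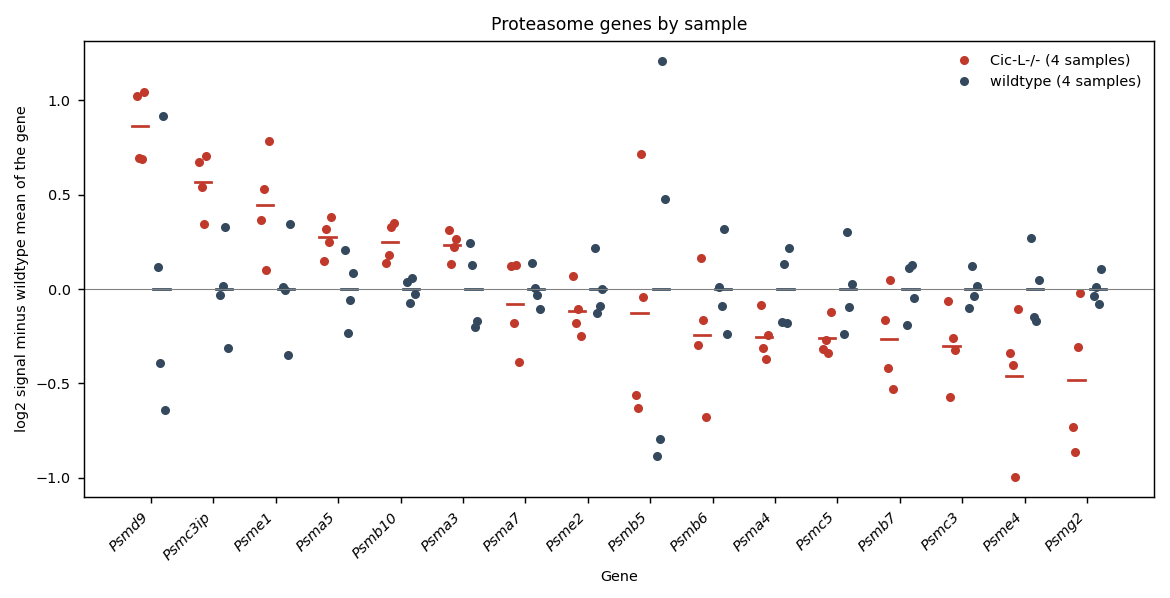
Log2 signal minus the gene's wildtype mean (vertical axis) in the 4 Cic-L-/- samples (left, red) and the 4 wildtype samples (right, blue) of 16 genes, with group means as bars. Groups lie apart for Psmc3ip and Psmb10 and overlap for the other 14 genes.

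The 6 assembly chaperone genes that met the naming rule in the annotation were all tested, and none passed. Psmd9, which helps to build the ATPase ring, had the largest difference of the 40 genes. Its log2 signals were 6.46, 6.14, 6.13 and 6.48 in Cic-L-/- liver, against 5.56, 5.05, 6.36 and 4.80 in wildtype liver, where it exceeded background on 2 of 4 arrays. The difference was 0.86 ± 0.29 (SE, limma adjusted p = 0.0971). Wildtype replicate 3 lay within the Cic-L-/- range, and without it the gene passed (1.17, adjusted p = 0.0103), while without wildtype replicate 4 it did not (0.65, adjusted p = 0.218). It passed with median centring (1.00, adjusted p = 0.0449) and not with an offset of 50 (0.52, adjusted p = 0.0887) or without background correction (0.28, adjusted p = 0.145), where the difference was much smaller. Its other probe was above background on 0 Cic-L-/- arrays and 1 wildtype array, with a difference of -0.28, and gives no second reading.

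Psmg2, which pairs with Psmg1 to align the alpha ring, had 7.30, 7.17, 7.73 and 8.01 in Cic-L-/- liver, against 7.998, 8.05, 7.96 and 8.14 in wildtype liver. The 4 wildtype samples were within 0.2 of each other, while the Cic-L-/- samples spread from below them into their range. The difference was -0.48 ± 0.19 (SE, limma adjusted p = 0.158), and it did not pass. With 1 sample left out it ranged between -0.63 (without Cic-L-/- replicate 4, adjusted p = 0.0489, past the threshold) and -0.35 (without Cic-L-/- replicate 2, adjusted p = 0.35). Without both Cic-L-/- replicates 1 and 2 it was -0.16 (adjusted p = 0.676), and with median centring -0.26 (adjusted p = 0.398). A second probe gave a like difference of -0.45 ± 0.24 (adjusted p = 0.313 over all probes above background), with overlapping groups. Psmg1 differed by 0.03 (interval -0.30 to 0.36), Psmg3 by -0.16 (-0.65 to 0.32), Psmd10 by 0.03 (-0.30 to 0.37) and the dim Psmd5 by 0.07 (-0.43 to 0.57).

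Among the 43 genes, 2 are named after a partner and are not subunits: Psmc3ip encodes HOP2, a recombination protein of meiosis, and Psme3ip1 a protein that binds PA28 gamma. Psmc3ip had the smallest p of the 40 genes. Its log2 signals were 6.29, 6.16, 5.96 and 6.32 in Cic-L-/- liver, against 5.59, 5.64, 5.95 and 5.30 in wildtype liver, and the groups did not overlap. The difference was 0.56 ± 0.17 (SE, limma adjusted p = 0.0658), and it did not pass. It passed without wildtype replicate 3 (0.67, adjusted p = 0.043) and with median centring (0.74, adjusted p = 0.0306). It did not pass without wildtype replicate 4 (0.46, adjusted p = 0.16), with an offset of 50 (0.36, adjusted p = 0.0973) or without background correction (0.19, adjusted p = 0.158). Of the 6 tested markers of cycling cells, 4 (Birc5, Tk1, Mcm6 and Plk1) were called higher in Cic-L-/- liver, against 4.49% of all features, and the summed level of the list was 2320 to 2980 in Cic-L-/- samples and 1590 to 1610 in wildtype samples, on the linear normalised scale. Their part in the Psmc3ip value was not tested. The probes of Psme3ip1 disagreed, the brighter at 0.04 (adjusted p = 0.925) and the other at -0.45 ± 0.15 with groups that did not overlap (adjusted p = 0.102 over all probes above background).

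Counted probe by probe, 54 of the 65 probes were kept, 0 of them passed and 6 had an unadjusted p under 0.05, against 6.2% and 21.2% of all 10300 kept probes. In 12 genes more than 1 probe was kept, and all probes shared a sign in 7 of them (Psma7, Psmb2, Psmb10, Psmc5, Psmd7, Psme1 and Psmg2). In Psmb7, Psmd10, Psmd11, Psmd12 and Psme3ip1 they did not. On the deposited normalised values, which carry no background correction, 0 of 40 genes passed against 8.3% of all features, 9 had an unadjusted p under 0.05 against 23%, and the median was -0.07. These 9 included Psmb10, Psmc3, Psma5 and Psma4 of barrel and cap.

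**Figure D4:**
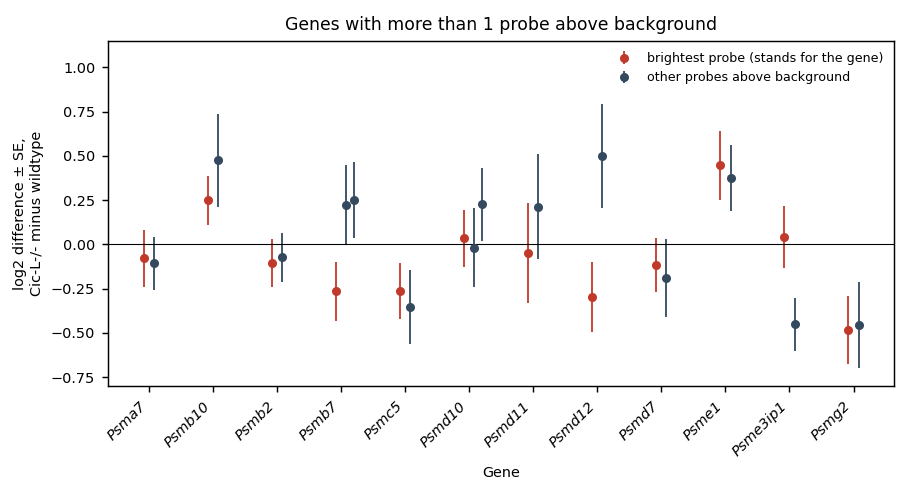
Log2 difference, Cic-L-/- minus wildtype, with its standard error, for each probe above background of the 12 genes with more than 1, the brightest probe in red and the others in blue. Psmg2, Psme1 and Psmc5 probes lie on 1 side of 0, and those of Psmb7 and Psmd12 on both.

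Genes that work with the proteasome were read from lists, and each list was described by counts only. Of the ubiquitin and proteasome-associated factors, 15 of 27 were in the annotation, 12 were tested, 0 passed (7.39% of all features did), 4 had an unadjusted p under 0.05 (22.5% of all features), and the median was -0.16. Sem1, a small lid subunit that lacks the Psm name, had a mean log2 signal of 9.99 (SD 0.35) over the 4 Cic-L-/- samples and 9.44 (SD 0.17) over the 4 wildtype samples, a difference of 0.55 (limma adjusted p = 0.103). Ecpas, which tethers cap to barrel, differed by -0.52 (adjusted p = 0.109), the ubiquitin ligase Ube3c by -0.45 (adjusted p = 0.149) and the shuttle factor Ubqln1 by -0.48 (adjusted p = 0.173). None of these 4 genes passed.

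Of the regulators of NRF1, 8 of 14 were tested and 0 passed, against 7.39% of all features, with 1 at an unadjusted p under 0.05, against 22.5%, and a median of 0.06. Syvn1, a ubiquitin ligase of the endoplasmic reticulum that keeps NRF1 low, differed by -0.57 ± 0.16 (SE, limma adjusted p = 0.051), with groups that did not overlap. Ogt differed by -0.40, Sel1l by 0.25 and Fbxw7 by 0.15. Of NRF2 and its targets, 15 of 20 were tested and 1 passed, against 7.39% of all features (2.9% lower in Cic-L-/- liver). In this list 2 genes had an unadjusted p under 0.05, both lower, against 22.5% of all features (9.92% lower). The gene that passed was Ephx1, as follows. Ephx1 was lower in Cic-L-/- liver (-0.60, adjusted p = 0.0476). Nfe2l2 differed by -0.52 (adjusted p = 0.139), Gclm by 0.35 (adjusted p = 0.223) and Taldo1 by -0.36 (adjusted p = 0.293), and the list median was -0.19. Of cytosolic chaperones and heat shock genes, 14 of 21 were tested and 1 passed, against 7.39% of all features (2.9% lower). Here 5 of the 14 had an unadjusted p under 0.05, all lower, against 22.5% of all features (9.92% lower). The co-chaperone Hsph1 fell in Cic-L-/- liver (-1.004, adjusted p = 0.0246), and the other 13 did not pass, among them Hsp90aa1 (-0.79, adjusted p = 0.0753), Hspa8 (-0.50, adjusted p = 0.129) and Stip1 (-0.46, adjusted p = 0.15). The median of this list was -0.29, the lowest of the 5 pathway lists.

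The interferon-inducible members stand beside other interferon and antigen presentation genes, of which 19 of 22 were tested and 2 rose in Cic-L-/- liver, where 4.49% of all features did, Gbp2 (0.84, limma adjusted p = 0.0137) and the peptide transporter Tap1 (0.78, adjusted p = 0.0433). This list includes Psmb8 and Psmb9. At an unadjusted p under 0.05 by limma, 6 of its genes were higher and 1 was lower, against 12.6% and 9.92% of all features. Igtp differed by 0.57 (adjusted p = 0.0545) and Tapbp by -0.57 (adjusted p = 0.147), and the list median was 0.27. The immunoproteasome subunits outside the set read 0.49 ± 0.22 for Psmb9 (adjusted p = 0.214) and -0.0038 ± 0.22 for Psmb8 (adjusted p = 0.994), with the Psmb8 probe above background on 3 Cic-L-/- and 2 wildtype arrays. Of 20 tested immune cell markers, 7 were called higher in Cic-L-/- liver, against 4.49% of all features, and 13 did not pass. The macrophage list (7 tested of 10, 2 called higher) had a summed level of 2620 to 6190 in Cic-L-/- samples and 2140 to 2390 in wildtype samples, and its marker Cd5l was not above background on any array. Its highest values came with Cic-L-/- replicates 1 and 2, which stand apart on the second component. The called markers were Marco and Adgre1. Marco read 8.84, 9.19, 5.88 and 7.04 in Cic-L-/- liver, against 5.66, 4.81, 5.14 and 5.07 in wildtype liver. Adgre1 read 10.21, 10.34, 8.84 and 9.23 in Cic-L-/- liver, against 8.49, 8.10, 7.90 and 8.30 in wildtype liver. Both markers were above every wildtype sample in Cic-L-/- replicates 3 and 4 as well. Lyz2, which did not pass, read 10.76 and 10.59 in these replicates and 8.82 and 8.72 in Cic-L-/- replicates 3 and 4, against 8.90 to 9.28 in wildtype liver. The lymphocyte list (6 tested of 13, 2 called higher) summed to 567 to 808 in Cic-L-/- samples and 444 to 499 in wildtype samples, with Cd8a not above background on any array. The neutrophil list (7 tested of 8, 3 called higher) summed to 3530 to 5150 in Cic-L-/- samples and 2200 to 2690 in wildtype samples. Their part in the Psme1, Psmb10 and Psmb9 values was not tested.

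The other marker lists had 0 called members: hepatocyte (6 tested, median -0.12), erythroid (4 tested, 0.16), endothelial (7 tested, 0.26) and stellate cell (6 tested, 0.06), at unadjusted p under 0.05 in 2, 0, 2 and 1 genes by limma, against 22.5% of all features. No cholangiocyte marker was bright enough to test.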

How the data were processed

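Total RNA of 8 mouse liver samples, isolated on RNeasy columns and labelled by the array maker's standard protocol per the labels, was measured on single-colour bead arrays. The sources used here do not give the scanner, the summarising software or the array slides, so no batch could be examined. The deposited table of intensity values is linear and was not normalised by the authors. The deposited log2 table was matched to within 5e-05 by taking log2 of those intensities and quantile normalising, and the series matrix, with column medians of 7.1614 to 7.1628, differed from it by 0, so scale, centring and direction are known. Of 26821 rows, 1124 carry no probe ID and were read as negative controls, a reading from their values. Background was corrected by normexp on these rows (limma 3.58.1, R 4.3.3, offset 16), then log2 and quantile normalisation followed. The 10300 probes kept were those brighter than 95% of control rows, a detection p of 0.05, on 4 or more arrays, and each gene was represented by its brightest kept probe. Log2 values throughout are on this scale, which understates differences of dim probes. The number of arrays limits the precision. Names came from the platform annotation, in which 23978 probes had 1 gene. The other 1719 probes had no gene or more than 1 and were left unnamed. Groups were compared by limma (two-sided, with lmFit and eBayes and without covariates), tested on simulated data beforehand, and intervals are 95% moderated intervals. The members and lists were chosen with earlier results of these data known. Values per sample are given for the 12 genes with the smallest p, because none was called, and for Psmb5, Psmb6, Psmb7, Psmb10, Psme1, Psme2 and Psma7; Psmf1, also in this rule, was not analysed here. Values of Psmd12 and some of Psmd14 were added after they were seen. From each pathway list the 4 tested genes with the smallest p were named, and Nfe2l1 was added. Deviations of same-numbered samples from their group means had correlations of -0.032 to 0.05, against -0.041 to 0.05 over all pairs across groups. Only replicate 4 matched its own number best. With 4 samples per group this cannot exclude a pairing, so whether the numbers pair the samples is not known.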

Additional observations from a re-analysis of the deposited data

Results flagged for a closer look

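Within each group of 4 samples, a gene was singled out when its highest or lowest sample stood away from the others by a share of the group's range above Dixon's 95% critical value, which chance gives in about 1 of 20 groups. Of 80 groups examined (40 genes in Cic-L-/- and in wildtype liver), 2 met this. Psmb2 read 11.93 in Cic-L-/- replicate 3, while the other Cic-L-/- samples lay between 11.78 and 11.80. Psma2 read 12.57 in wildtype replicate 4, while the other wildtype samples lay between 12.34 and 12.36.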

How the results depend on the processing

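The count of 0 called proteasome genes held without background correction, with an offset of 50, with no detection filter, with probes bright on all 8 arrays, with all kept probes, with probe means, with a variance trend and with a replicate block. It was 2 with median centring and 0 to 2 when 1 sample was left out, and 0 without both Cic-L-/- replicates 1 and 2, an alternative chosen after seeing the data. The median difference became 0.081 with median centring, -0.11 to -0.02 with 1 sample left out, and -0.0032 without both replicates. All features called numbered 610, 326 to 628 with 1 sample left out (326 without Cic-L-/- replicate 1, 349 without Cic-L-/- replicate 2, 388, 398 and 396 without wildtype replicates 1, 2 and 4), and 148 without both replicates, in a smaller sample. The replicate block gave 468. With median centring 83.6% of calls were higher in Cic-L-/- liver, 683 against 134 lower, in place of 60.8%. Over 286 repeats of the 16 genes' values, 272 kept direction and side of the threshold and 5 passed it, all given above. The sign turned in 9: with median centring for Psme2 (0.10) and Psma7 (0.029), with probe means for Psmb7 (0.070), with 1 sample left out for Psma7 (-0.15 to 0.024) and Psmb5 (-0.42 to 0.27), and without both replicates for Psmb5 (0.34). The cause was not tested. Of the 40 genes, 6 were not above background on every array.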
